A study of Mus musculus with 8 samples.

Results

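Genes of the MHC class II antigen presentation pathway were followed in FACS-purified Paneth cells, the antimicrobial secretory cells at the base of small intestinal crypts, of C57BL/6J mice. The set held 7 genes: Cd74, H2-Aa, H2-Ab1, H2-Eb1, H2-DMa, H2-DMb1 and Ciita, taken by symbol from the 55414 identifiers of the count table. All 7 were listed in the table, 6 of them passed the expression filter of the diet comparison and Ciita did not. They were chosen by their measured counts in these 8 mice, the diet contrast included, so their levels, fold changes, intervals and calls are given as a description, and nothing is concluded from the calls. The study kept 4 mice on a standard chow and 4 mice on a zinc depleted chow, both for 7 weeks and with free access to food. Each mouse gave 1 RNA-seq library, prepared with a kit that keeps the strand of the mRNA. The genotype label was C57BL/6J for all mice and named no mutant allele, and the sources used here give neither age nor sex of the single mice. The question addressed by the design is which transcripts of Paneth cells differ between the diets.

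MHC class II molecules are surface proteins that show peptides from lysosomes to CD4+ T cells. An alpha chain (H2-Aa in I-A) and a beta chain (H2-Ab1 in I-A, H2-Eb1 in I-E) form the peptide groove, the invariant chain Cd74 fills that groove during transport, and the H2-DM heterodimer (H2-DMa and H2-DMb1) exchanges the last piece of the invariant chain for a peptide. Ciita is the coactivator that switches the whole set on, bound through the RFX, CREB and NF-Y factors that sit on the X and Y boxes of class II promoters. Dendritic cells, B cells and macrophages carry these molecules constantly, whereas epithelial cells of the small intestine acquire them under interferon gamma and microbial stimulation.

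The promoter sequences are shown because X and Y boxes are what class II genes have in common as targets of Ciita. RefSeq promoter windows on GRCm38.p6, which run from 250 bases before to 50 bases after the start site, were found for 4 of the 7 genes (H2-Aa, H2-Eb1, H2-DMa and H2-DMb1) and not for Cd74, H2-Ab1 or Ciita. Stretches of 90 bases are shown for the 3 genes that hold both boxes and for H2-Eb2, a class II gene outside the set that had no count in any mouse. Capitals mark the letters TGATTGG, which contain the inverted CCAAT core of the Y box, and the letters GNAACT, the piece of the X box that these promoters share. The stretches lie at chr17:34287844-34287933 on the minus strand (H2-Aa), and on the plus strand at chr17:34305746-34305835 (H2-Eb1), chr17:34153068-34153157 (H2-DMb1) and chr17:34325513-34325602 (H2-Eb2).
H2-Aa: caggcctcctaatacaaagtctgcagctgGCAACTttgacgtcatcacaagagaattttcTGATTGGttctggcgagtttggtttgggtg
H2-Eb1: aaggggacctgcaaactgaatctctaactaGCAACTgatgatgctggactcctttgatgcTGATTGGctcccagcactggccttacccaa
H2-DMb1: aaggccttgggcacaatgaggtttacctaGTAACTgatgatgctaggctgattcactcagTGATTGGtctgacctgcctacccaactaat
H2-Eb2: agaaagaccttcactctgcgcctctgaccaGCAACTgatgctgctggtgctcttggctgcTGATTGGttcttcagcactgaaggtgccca

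In all 4 stretches GNAACT preceded TGATTGG, with 25 bases between them in H2-Aa and H2-DMb1 and 24 bases in H2-Eb1 and H2-Eb2. The stretches were picked because they hold both boxes, so nothing is read from all 4 having the pair. The windows of H2-DMb2, H2-Oa and H2-Ob, class II genes with no count in any mouse, also held TGATTGG. In these windows GNAACT did not lie 24 or 25 bases before TGATTGG, and their sequences are not shown. TGATTGG began 50 bases before the start site in H2-Aa, 61 bases before it in H2-Eb1, 63 bases before it in H2-DMb1 and 102 bases before it in H2-Eb2. Of 32817 promoter windows of this length, 7.8% held TGATTGG on either strand and 37.4% held its core ATTGG on either strand. GNAACT, searched on the strand of the gene, was found in 24.5% of the windows. The spaced pair was found in 10 windows (0.0305%), among them those of H2-Aa, H2-DMb1, H2-Eb1 and H2-Eb2. Because these letters and their spacing were read from these promoters, the last share is a description. Neither of the 2 windows of H2-DMa held TGATTGG. The window at chr17:34125268-34125567 held 1 copy of the core ATTGG or its complement CCAAT, and the other window held 0. Which start site of H2-DMa was used in these cells was not tested.

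The libraries held 8557690 to 12648005 counts, and pairs of mice on the same diet all differed beyond counting noise, by chi-square values of 5.43 to 55.1 for each degree of freedom. Levels are given in CPM, the counts of a gene per 1000000 counts of the library, in which 3 counts (the limit that a count of 0 allows) correspond to 0.237 to 0.351 CPM. These limits, and the Poisson and binomial intervals given with the counts, cover counting error only. The Paneth label was borne out by its markers: 7 Paneth cell products (Lyz1, Defa24, Mmp7, Itln1, Ang4, Mptx2 and Pla2g2a) summed to 392855 to 515865 CPM per mouse. The lowest of these sums was that of standard diet mouse 1. A second scale, TMM-scaled CPM, corrects for the few very abundant transcripts that fill each library. Standard diet mouse 1 had the highest TMM factor (1.57, against 0.719 to 1.16 in the 7 other mice), so the second scale lowers this mouse relative to the others. On that scale Lyz1 was lowest in this mouse (91423, against 134216 to 240095), as were Defa24, Mmp7, Itln1, Ang4 and Mptx2. Pla2g2a was not (470.0, against 347.9 to 697.9).

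Transcripts of MHC class II genes were present in the sorted Paneth cells of every mouse, at a low level. Cd74 is encoded on chromosome 18 (60936899 to 60945731, plus strand, GRCm39, ENSMUSG00000024610) and was the most abundant of the 7 genes. It had 119.8, 13.8, 15.9 and 7.02 CPM in standard diet mice 1 to 4, and 16.7, 10.3, 20.1 and 8.38 CPM in zinc depleted mice 1 to 4. Standard diet mouse 1 lay far above the 7 other mice, which covered the same range on both diets. The means were 39.1 ± 53.9 CPM (SD, n = 4) on the standard diet and 13.9 ± 5.48 CPM (SD, n = 4) on the zinc depleted diet, so the SD of the standard diet exceeded its mean. By mean CPM over the 8 mice, Cd74 ranked 2541 among all identifiers.

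The beta chain gene H2-Ab1 lies on the plus strand of chromosome 17 (34476663 to 34488393, GRCm39). H2-Ab1 had 43.9, 8.27, 13.3 and 5.21 CPM in the standard diet mice and 10.9, 9.62, 14.4 and 4.43 CPM in the zinc depleted mice. Its alpha chain partner H2-Aa, on the minus strand of the same chromosome (34493404 to 34506798), had 19.9, 0.475, 5.84 and 0.902 CPM against 4.53, 2.18, 3.75 and 0.791 CPM. Mouse 1 of the standard diet was again the highest for both chains, and mouse 2 of that diet had only 5 counts of H2-Aa. H2-Eb1, the beta chain of I-E (34504236 to 34535648, plus strand), had 30.7, 1.90, 3.97 and 1.60 CPM on the standard diet and 5.74, 3.99, 5.58 and 1.74 CPM on the zinc depleted diet. The values of the diets overlapped for each of these genes. In the GENCODE M39 annotation H2-Aa and H2-Eb1 share 118 exon bases on opposite strands, and the sources used here do not state whether the counting used strand, so reads in this overlap cannot be assigned with certainty.

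The genes of the peptide exchange factor had few counts. H2-DMa (chromosome 17, 34338515 to 34358958, plus strand) had 4.57, 1.14, 0.701 and 2.51 CPM on the standard diet and 0.605, 1.81, 2.18 and 0.870 CPM on the zinc depleted diet. H2-DMb1 (34372046 to 34379204, plus strand) had 4.65, 1.33, 0.701 and 0.100 CPM against 2.12, 1.54, 0.959 and 0.870 CPM. These levels rest on 6 to 54 counts of H2-DMa and 1 to 55 counts of H2-DMb1 per mouse. Both chains of the heterodimer were highest in standard diet mouse 1, but among the other mice they did not follow each other: standard diet mouse 4 had 25 counts of H2-DMa and 1 count of H2-DMb1. H2-DMb1 shares 27.2% of the 50-base windows of its canonical transcript with its neighbour H2-DMb2, for which no count was listed in any mouse, so its level is uncertain. It also shares 285 exon bases with an annotated transcript on the opposite strand, Gm64535, which the count table did not list. H2-DMa shares 510 of 4331 exon bases with Brd2 on the opposite strand, and Brd2 had far more counts (6642 over the 8 mice).

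Ciita (chromosome 16, 10297923 to 10347694, plus strand, ENSMUSG00000022504) was close to the limit of detection in 7 mice. Its counts were 53, 6, 0 and 3 in standard diet mice 1 to 4 and 8, 6, 1 and 5 in zinc depleted mice 1 to 4. The 53 counts of standard diet mouse 1 have an exact 95% Poisson interval of 39.7 to 69.3, and the next highest mouse, with 8 counts, one of 3.45 to 15.8. In CPM this mouse had 4.48, against 0 to 0.806 CPM in the 7 others. The count of 0 in standard diet mouse 3 allows up to 0.351 CPM. Ciita shares 633 of 11041 exon bases with Dexi on the opposite strand, and Dexi had 1288 counts over the 8 mice, against 82 for Ciita. Counts per gene do not show which of the alternative Ciita promoters was used.

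**Figure D1:**
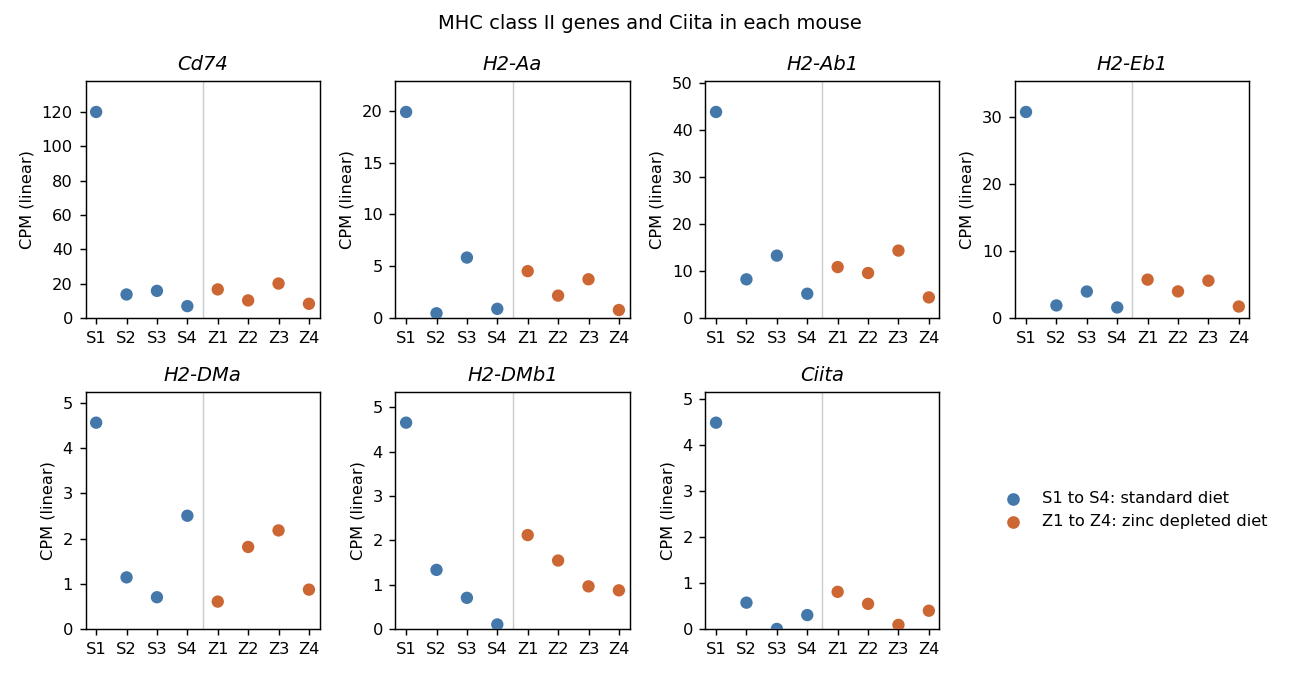
CPM of the 7 genes in each mouse, 1 point per library, with linear axes that start at 0 and differ between panels. Standard diet mouse 1 (S1) is the highest point in every panel, from 4.48 CPM for Ciita to 119.8 CPM for Cd74, while the other mice of both diets share a common range.

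All 7 genes were highest in standard diet mouse 1 on both scales. Of the 10911 genes tested, 73.0% had their highest CPM in this mouse and 18.9% their highest TMM-scaled CPM. For Cd74 the mouse exceeded the next one 5.95-fold in CPM and 4.15-fold in TMM-scaled CPM. The corresponding ratios were 5.56 and 3.31 for Ciita, 5.34 and 3.18 for H2-Eb1, 3.40 and 2.01 for H2-Aa, and 3.05 and 1.95 for H2-Ab1. The H2-DM genes stood out least, with 2.20 and 1.31 for H2-DMb1 and 1.82 and 1.10 for H2-DMa. Against the median of the 7 other mice, the TMM-scaled level of this mouse was 6.11-fold for Ciita, 5.31-fold for Cd74, 4.57-fold for H2-Eb1 and 2.40-fold for H2-Ab1.

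The 7 other mice also differed among themselves, and the main chains moved together there. In TMM-scaled CPM, H2-Ab1 was 5.51 in standard diet mouse 4, 7.13 in standard diet mouse 2 and 5.24 in zinc depleted mouse 4, and 11.7 to 14.4 in the 4 remaining mice. The same 3 mice were also the lowest for the 3 other genes. Cd74 was 7.41 to 11.9 in them and 14.4 to 18.4 in the 4 remaining mice. H2-Eb1 was 1.64 to 2.06 against 4.29 to 6.15, and H2-Aa was 0.410 to 0.953 against 3.03 to 6.30. Both diets were present in each range. In CPM without this scaling the separation of Cd74 was lost, since zinc depleted mouse 2 (10.3 CPM) fell below standard diet mouse 2 (13.8 CPM). H2-DMa and H2-DMb1 did not share this order.

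**Figure D2:**
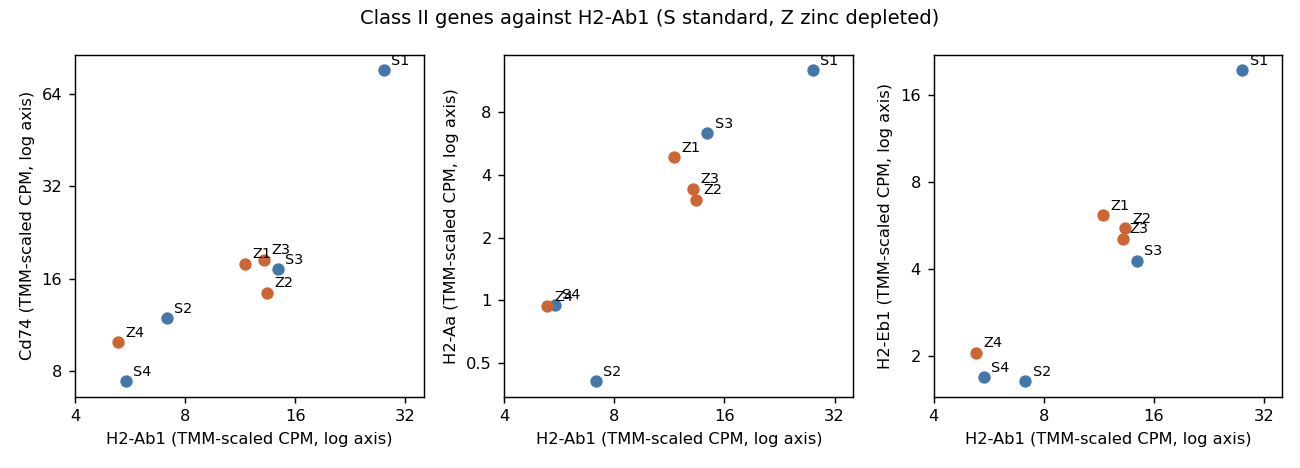
TMM-scaled CPM of Cd74, H2-Aa and H2-Eb1 against H2-Ab1 in the 8 mice, on log axes, with S for standard diet and Z for zinc depleted. S1 is at the upper right in each panel (27.99 for H2-Ab1), S2, S4 and Z4 are at the lower left, and mice of both diets lie between.

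The proportions of the chains varied as well. Cd74 made up 34.4% to 52.6% of the counts of the 7 genes and H2-Ab1 19.3% to 32.9%, with the highest share of Cd74 and the lowest share of H2-Ab1 both in standard diet mouse 1. Of the counts of both I-A chains, H2-Aa took 31.2% in standard diet mouse 1 (exact 95% binomial interval 27.9 to 34.6%) and 30.5% in standard diet mouse 3 (23.5 to 38.1%). In standard diet mouse 2 this share was 5.43% (1.79 to 12.2%), an interval that lies below those of the former mice. In the zinc depleted mice it was 15.2% to 29.4%.

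Levels between genes were compared per length, as TPM, for which the counts were divided by the summed length of all exons of a gene. The medians over the 8 mice were 4.87 TPM for Cd74, 3.07 for H2-Ab1, 1.17 for H2-Eb1, 0.576 for H2-DMb1, 0.554 for H2-Aa, 0.266 for H2-DMa and 0.0323 for Ciita. Cd74 exceeded H2-Ab1, and H2-Ab1 exceeded H2-Eb1, in 8 of 8 mice. H2-DMb1 and H2-Aa could not be ordered, with H2-DMb1 higher in 4 of 8 mice, and neither could H2-Aa and H2-DMa, with H2-Aa higher in 5 of 8 mice. With the length of the canonical transcript, H2-Aa (1.83 TPM) moved above H2-Eb1 (1.56 TPM), because the summed exons of H2-Aa (4292 bases) are much longer than that transcript (1128 bases). H2-Aa then exceeded H2-DMb1 in 7 of 8 mice. The first and second places (Cd74 and H2-Ab1) and the last (Ciita) were kept.

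Between the diets, none of the 6 genes that passed the filter was called with edgeR (quasi-likelihood test, Benjamini-Hochberg adjusted p under 0.05), against 0.403% of the 10911 genes tested (0.147% higher and 0.257% lower on the zinc depleted diet), and because the genes were chosen with this contrast in view, nothing is read from that count. Nor did any have an unadjusted p under 0.05, against 1142 of the 10911 genes tested. DESeq2 called 0 of 7, against 134 of 12270 genes over the whole table. The CPM values of the diets overlapped for all 6 genes. Over all genes tested, 6.83% had CPM values that did not overlap between the diets. For the same reason nothing is read from this overlap, from the unadjusted p or from the DESeq2 calls. The fitted log2 fold change, zinc depleted minus standard diet, was -0.92 for Cd74 (95% interval -2.83 to 0.98), -0.78 for H2-Aa (-3.23 to 1.68) and -0.60 for H2-Eb1 (-2.74 to 1.55). It was -0.37 for H2-Ab1 (-1.67 to 0.93), -0.28 for H2-DMa (-1.34 to 0.79) and 0.21 for H2-DMb1 (standard error 0.61). Each interval included 0. Ciita was fitted only without the expression filter, with a log2 fold change of -0.92 (-2.24 to 0.40) in which most mice had few counts.

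For 5 of the 6 genes the direction of the fold change rested on 1 mouse. Standard diet mouse 1 was the highest mouse for each gene, so leaving it out was bound to raise each fold change. It was singled out by these same values, so the fold changes and intervals without it are a description. Without standard diet mouse 1, all 6 log2 fold changes were positive: 0.33 for Cd74 (95% interval -0.25 to 0.90), 0.32 for H2-Aa (-1.85 to 2.48), 0.28 for H2-Ab1 (-0.58 to 1.14), 0.92 for H2-Eb1 (0.04 to 1.79), 0.07 for H2-DMa (-1.12 to 1.27) and 1.16 for H2-DMb1 (-0.20 to 2.52). H2-DMb1, positive with all 8 mice, became negative without standard diet mouse 4 (-0.13) or zinc depleted mouse 1 (-0.01). None was called in the fit without standard diet mouse 1, in which 0.302% of 10924 genes were. With library size as the only scaling, all 6 log2 fold changes were negative, among them -1.29 for H2-Aa and -0.34 for H2-DMb1, which turned its direction, while the median of all genes moved from -0.01 to -0.37.

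**Figure D3:**
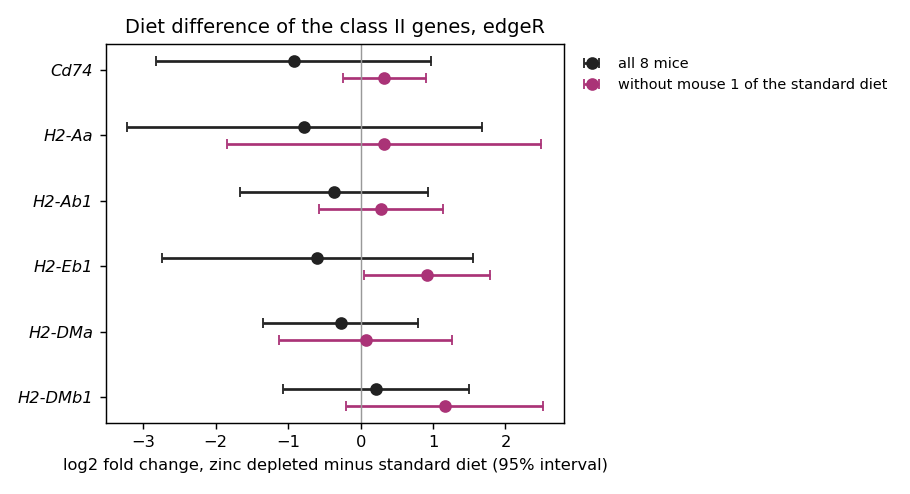
Log2 fold change of the 6 genes between the diets with its 95% interval from edgeR, with all 8 mice (black) and without standard diet mouse 1 (purple). Black points lie below 0 for 5 of 6 genes, purple points lie above 0 for all 6, and only the purple interval of H2-Eb1 (0.04 to 1.79) leaves out 0. Standard diet mouse 1 was the highest for each gene and was picked on these values, so its removal was bound to raise each point.

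The spread within a diet put these genes among the most variable of the genes tested in these libraries. The biological coefficient of variation fitted by edgeR was 0.963 for H2-Aa, 0.822 for H2-Eb1, 0.721 for Cd74, 0.530 for H2-DMb1, 0.526 for H2-Ab1 and 0.438 for H2-DMa, against a median of 0.204 over all genes tested. They lay at percentiles 97.0 (H2-DMa) to 99.8 (H2-Aa). Some markers of other epithelial cells lay as high, among them Apoa1 (99.97) and Muc2 (98.96), and others, such as Anpep (8.86), did not. Without standard diet mouse 1 the coefficient of Cd74 was 0.239 (percentile 67.3), that of H2-Ab1 0.338 (percentile 85.6) and that of H2-Eb1 0.342 (percentile 86.3), while H2-Aa was at 0.789 (percentile 99.4), H2-DMa at 0.434 (percentile 96.4) and H2-DMb1 at 0.433 (percentile 96.3).

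Defining markers of other cells that carry class II molecules, and of leukocytes in general, were read in the same libraries. Of 46 markers of leukocytes, 24 had no count in any of the 8 mice. The dendritic cell genes Itgax, Flt3, Xcr1 and Clec9a, the B cell genes Ms4a1 and Cd22, the macrophage genes Adgre1, Csf1r and Fcgr1, and the T cell genes Cd3e, Trac, Cd4 and Cd8a were all at 0 of 85938593 counts, which allows up to 0.0349 CPM. Other markers were not at 0: C1qa, a complement gene of macrophages, had 11 counts in standard diet mouse 1, 3 in standard diet mouse 2, 4 in zinc depleted mouse 3 and 0 in the others. C1qb had 2 counts, both in standard diet mouse 2, and C1qc had 0. Cd68 had 5 counts in standard diet mouse 1 and 0 to 5 in the others, and the B cell gene Cd79b had 5 and 0 to 4. Zbtb46, of the dendritic cell list, had 17 counts over 6 mice, 3 of them in standard diet mouse 1. Of the T cell list, Cd3d had 3 counts and Gzmb 4, all in zinc depleted mouse 4. The lists summed to 0 to 0.475 CPM per mouse for dendritic cells, 0 to 0.791 CPM for B cells and plasma cells, and 0 to 0.553 CPM for T cells and innate lymphoid cells. Macrophage markers summed to 26.9 to 51.3 CPM, of which Lyz2 made up nearly all, and general leukocyte markers to 35.6 to 81.1 CPM, of which Lcp1 made up nearly all. The neighbour of Lyz2 on chromosome 10, the Paneth cell gene Lyz1, had 141365 to 181556 CPM. Whether some Lyz1 reads were counted as Lyz2 was not tested, so the level of Lyz2 is uncertain. Lcp1 was highest in standard diet mouse 1 in CPM (80.8, against 34.8 to 52.7) but not in TMM-scaled CPM (51.5, against 37.6 to 62.4). Lyz2, Lcp1 and Mertk, the 3 leukocyte markers that passed the filter, were not called between the diets by edgeR or DESeq2, and Lyz2 had an unadjusted p under 0.05 (log2 fold change 0.64, standard error 0.24).

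Without Lcp1, Lyz2, Mertk and Ptprc, which were set aside after their counts were seen, the 42 remaining leukocyte markers had 25 counts together in standard diet mouse 1, 11 of them C1qa, against 2696 counts of the 7 class II genes. The same markers had 20 counts in standard diet mouse 2, 20 in zinc depleted mouse 3 and 22 in zinc depleted mouse 4. The class II genes of these mice had 289, 540 and 221 counts. H2-Oa and H2-Ob, the chains of the H2-DM inhibitor found in B cells and some dendritic cells, and the co-stimulator Cd86 were also at 0 in every mouse. Ptprc (CD45) had 32 counts in zinc depleted mouse 3 and 0 to 4 in the others. The part of these cells in the class II levels was not tested. In bulk samples, fewer cells with a transcript and less of it per cell cannot be told apart.

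Markers of other epithelial cells were detected in every mouse. Enterocyte markers summed to 407.7 CPM in standard diet mouse 1 and to 171.8 to 423.4 CPM in the 7 others, and Anpep made up most of these sums. In TMM-scaled CPM Anpep was 225.1 in standard diet mouse 1 and 202.8 to 264.9 in the others. Fabp1 (0.485, against 1.14 to 23.4), Fabp2 (14.3, against 18.4 to 74.0) and Sis (0.647, against 1.01 to 10.4) were lowest in that mouse, and the other listed enterocyte markers were not. Tuft cell markers summed to 49.3 CPM in standard diet mouse 1 and were highest in zinc depleted mouse 3 (308.4 CPM). Stem and transit amplifying cell markers summed to 1349 to 2167 CPM on the standard diet and to 514.8 to 1087 CPM on the zinc depleted diet. Standard diet mouse 1 had the highest sum in CPM. Olfm4 made up most of these sums, and in TMM-scaled CPM it was highest in standard diet mouse 4 (1715, against 1135 in standard diet mouse 1). Of the 7 stem and transit amplifying cell markers, 3 had their highest TMM-scaled CPM in standard diet mouse 1, against 18.9% of all genes tested. In CPM all 7 were highest there, against 73.0%. All 7 had a negative log2 fold change, 5 had an unadjusted p under 0.05, edgeR called 1 and DESeq2 called 2 (Olfm4 and Top2a). Over the whole table, 1142 of 10911 genes had an unadjusted p under 0.05, edgeR called 0.403% and DESeq2 called 134 of 12270. Top2a, a topoisomerase of dividing cells, fell (log2 fold change -1.18, standard error 0.21, adjusted p = 0.0229 in edgeR). Its adjusted p ranged from 1.12e-08 to 0.116 over the alternatives, in 9 of 14 of which it was called. No marker of enterocytes (9 of 10 tested), goblet cells (6 of 6), tuft cells (4 of 5), enteroendocrine cells (2 of 5) or Paneth cells (7 of 7) was called by edgeR, although 3 Paneth cell markers had an unadjusted p under 0.05 and DESeq2 called Mptx2 and Pla2g2a. Of 7 stromal and vessel markers, 5 were at 0 in all mice. The part of stem cell markers and of Paneth cell content in the class II levels was not tested.

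**Figure D4:**
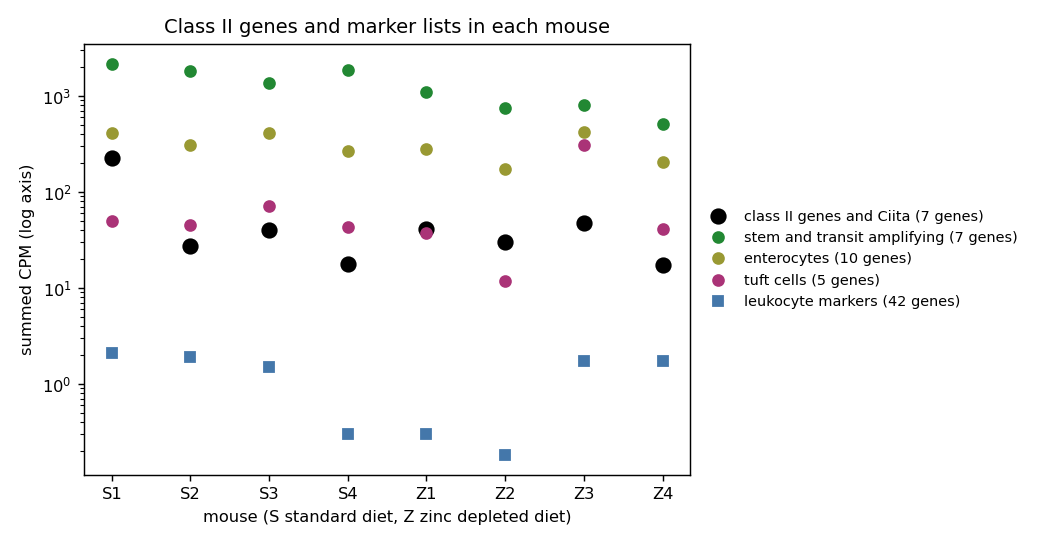
Summed CPM in each mouse, on a log axis, of the 7 class II genes (black), of stem and transit amplifying, enterocyte and tuft cell markers, and of 42 of 46 leukocyte markers (squares), with Lcp1, Lyz2, Mertk and Ptprc left out after their counts were seen. Class II genes reach 228.0 CPM in S1 and 17.5 to 47.1 CPM elsewhere, and the 42 leukocyte markers lie between 0.181 and 2.11 CPM.

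Other genes of the pathway were read from 4 lists. The list of antigen processing and peptide loading held 14 genes, of which 8 were tested and 1 rose. This was Lgmn, the asparaginyl endopeptidase legumain, a lysosomal protease that cuts the invariant chain and antigens. Lgmn had 158.6, 100.5, 112.3 and 106.6 CPM on the standard diet and 168.5, 161.0, 173.7 and 244.0 CPM on the zinc depleted diet, with no overlap. Its log2 fold change was 1.02 (standard error 0.19, adjusted p = 0.0237, edgeR). The call was lost without standard diet mouse 2 (adjusted p = 0.147) or 4 (0.0949), without zinc depleted mouse 2 (0.0591) or 4 (0.0523), and with library size only (0.239), and over all alternatives the edgeR and DESeq2 adjusted p ranged from 1.83e-06 to 0.239.

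The other lysosomal proteases were not called. Ctss, the cathepsin that trims the invariant chain in antigen presenting cells, had a log2 fold change of -0.81 (standard error 0.33, adjusted p = 0.38 in edgeR) and Ctsl one of 0.34 (0.16, 0.462). Ctsb, Ctsd, the thiol reductase Ifi30, the intramembrane protease Sppl2a and the ubiquitin ligase Marchf8 lay between -0.19 and 0.25. The list had a median of 0.03, against -0.01 for all genes tested, and 3 of its genes had an unadjusted p under 0.05. Over all genes tested, 1142 of 10911 had one, the share to set beside this count and those of the lists below. Its 6 other genes (H2-DMb2, H2-Oa, H2-Ob, H2-Eb2, H2-Ea and Marchf1) had no count in any mouse. H2-Ea encodes the alpha chain of I-E, which C57BL/6 mice do not make because of a promoter deletion.

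The transcription machinery below Ciita was measurable in every mouse and was not called. All 10 genes (the RFX subunits Rfx5, Rfxap and Rfxank, Creb1, the NF-Y subunits Nfya, Nfyb and Nfyc, and the acetyltransferases Crebbp, Ep300 and Kat2b) were tested, and edgeR called 0, with 0 at an unadjusted p under 0.05 and 0 called by DESeq2. Their median log2 fold change was 0.07. Rfx5 was 5.23 TMM-scaled CPM in standard diet mouse 1 and 1.51 to 5.07 in the 7 others. None of the 9 other factors was highest in that mouse on this scale, whereas in CPM 9 of the 10, all but Creb1, were.

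The route from interferon gamma to Ciita had 7 of 10 genes tested and 0 called by edgeR or DESeq2, with 1 at an unadjusted p under 0.05 and a median log2 fold change of 0.06. Interferon gamma itself (Ifng) had no count in any mouse. Irf1, the interferon response factor that acts on the Ciita promoter, had 35.8 TMM-scaled CPM in standard diet mouse 1 and 12.7 to 24.2 in the 7 others. Ifngr1, a receptor chain, was also highest in that mouse (23.5, against 16.4 to 22.4), but Jak1, Jak2, Ifngr2 and Usf1 were not. In CPM without this scaling, each of these 6 genes was highest in standard diet mouse 1. Nlrc5, the class I counterpart of Ciita, had 11 counts in standard diet mouse 1 and 0 to 5 in the others. In TMM-scaled CPM it was highest in zinc depleted mouse 2 (0.631, against 0.593 in standard diet mouse 1).

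Of 8 genes of co-stimulation and inhibition, 3 were tested and 0 called by edgeR or DESeq2, with 1 at an unadjusted p under 0.05 and a median log2 fold change of -0.58. Icosl, a ligand of the T cell co-stimulator ICOS, had 2.37, 1.62, 1.05 and 1.40 CPM on the standard diet and 1.01, 0.363, 0.959 and 0.474 CPM on the zinc depleted diet, which did not overlap, but its log2 fold change of -0.86 was not called (standard error 0.46, adjusted p = 0.543, edgeR). Tnfrsf14 was highest in standard diet mouse 1 (3.67 TMM-scaled CPM, against 0.630 to 2.86) and had a log2 fold change of -0.58 (0.44). Cd86 and Pdcd1lg2 had no count in any mouse, Cd40 had 1, and Cd274 had 13 counts in standard diet mouse 1 and 0 to 3 in the others.

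**Figure D5:**
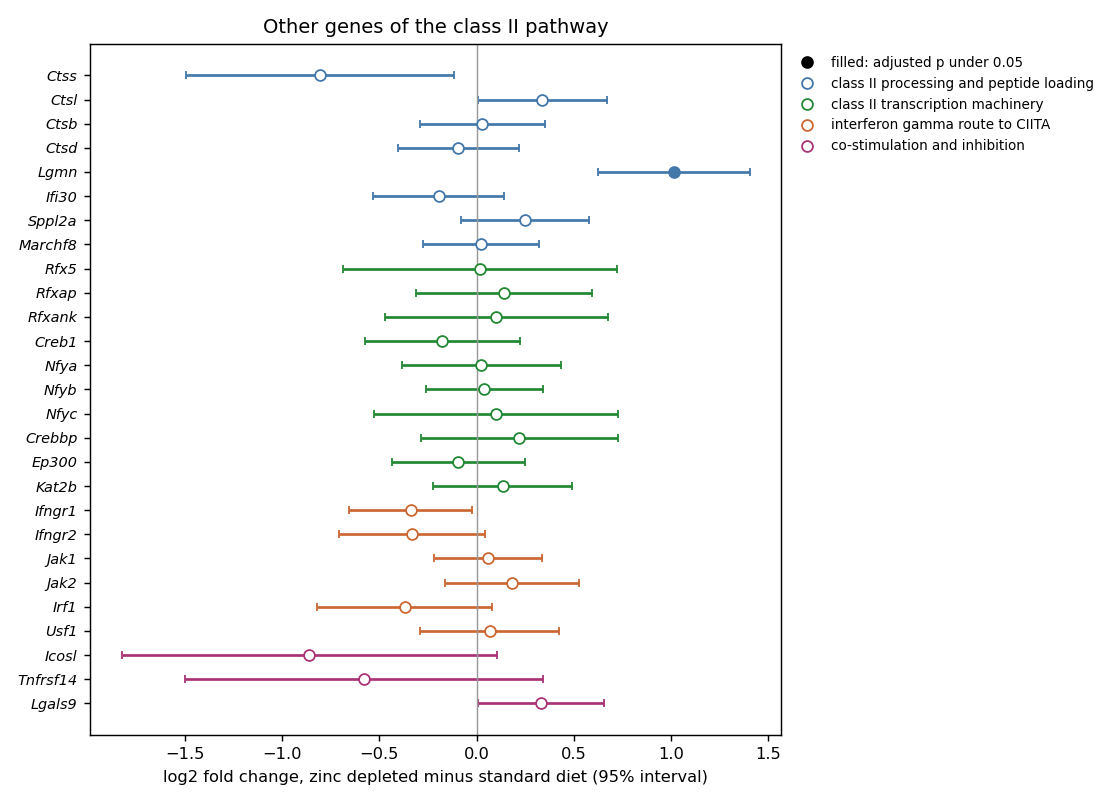
Log2 fold change with its 95% interval between the diets for 27 of the 28 tested genes of the 4 pathway lists, coloured by list, with a filled point for an adjusted p under 0.05 in edgeR. Lgmn (1.02) is the only filled point.

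The genes whose levels over the 8 mice were most like the mean standardised level of the 6 filtered class II genes were ranked by Pearson correlation among 10763 genes, as a description of libraries that share depth and composition. The first 10 were Fosl2 (r = 0.954), Ppp4r1l-ps (0.948), Bcl2, Fgfr3, Midn, Prpf40b, Hsf4, Rps6kb1, Gnptab and Pacs2. Without standard diet mouse 1 their r was 0.725 to 0.892. Fosl2, a subunit of the transcription factor AP-1, had 26.9 TMM-scaled CPM in standard diet mouse 1 and 18.3 to 23.3 in the 7 others. Hsf4, a heat shock factor, had 3.13 and 0.561 to 1.77, and over the 10 genes standard diet mouse 1 exceeded the next mouse 1.10 to 1.77-fold. With the mean of each diet subtracted, the first 5 were Rps6kb2 (r = 0.965), Ppp4r1l-ps, Fosl2, Bcl2 and Midn. Without standard diet mouse 1, and with the diet means kept, r was 0.433 for Rps6kb2 and 0.768 to 0.891 for the others of these 5. No gene of the pathway lists was among the first 10 or the first 5. The lists held only 28 tested genes, against 10763 compared, so nothing is read from this absence.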

How the data were processed

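RNA-seq libraries of sorted Paneth cells from 8 mice were analysed. The deposited table gives raw counts for each Ensembl gene, as whole numbers and without normalization. The submitters' processing notes name mm39, STAR 2.7.0a, FastQC 0.12.0 and DESeq2, but not the counting program, the annotation release or the strand setting. Column names gave diet and mouse number. GENCODE M39 (GRCm39) gave names for 54749 of 55414 identifiers. For the 74 symbols carried by several identifiers, the one with most counts was used.

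CPM, TPM and likeness were computed in Python 3.11.15 with numpy 2.4.6, pandas 2.3.3 and scipy 1.17.1, and figures with matplotlib 3.10.9. Diets were compared over all genes with edgeR 4.0.16 in R 4.3.3 (TMM, filterByExpr, robust quasi-likelihood fit, Benjamini-Hochberg adjustment), after a test on simulated counts. DESeq2 1.42.0 was an alternative. Fold changes are on the log2 scale. Labels give each mouse a title of its own, and p-values measure the spread between these mice.

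The members and lists were chosen with earlier results of these data known. Named genes are the members, genes of 16 lists, and those most like the members (10 over all mice, 5 with diet means subtracted). Likeness used log2 of TMM-scaled CPM with a pseudocount of 1, over genes that passed the filter and averaged 1 CPM or more. Single values of 2 listed genes are not reported here. Genes outside the lists appear only as overlapping neighbours. Alternatives were other scaling, no filter, no robust option, DESeq2, the replicate number as a block, each mouse left out, and gene length.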

Additional observations from a re-analysis of the deposited data

Results flagged for a closer look

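In 3 of 14 groups of 4 mice examined (7 genes on each diet), 1 mouse lay farther from its nearest neighbour, relative to the range of the group, than Dixon's critical value allows. Chance marks about 1 group in 20, a rate that cannot be set against this count, because all 3 were standard diet mouse 1, the genes varied together and the counts were known when they were chosen. The values are a description. Cd74 was 119.8 CPM there, with 15.9 CPM in the nearest mouse of that diet (gap of 0.921 of the range). H2-Eb1 was 30.7 CPM, with 3.97 CPM in the nearest mouse (0.919), and Ciita was 4.48 CPM, with 0.570 CPM in the nearest mouse (0.873).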

How the results depend on the processing

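In all 14 alternatives to the edgeR fit, 0 class II genes were called. The number of genes called over the whole table was 44, and it was 11 with library size only, 25 without the robust option, 251 without the expression filter, 134 with DESeq2 and 8 to 36 with 1 mouse left out (8 without standard diet mouse 2 or mouse 4, and 26, 13 and 17 without zinc depleted mouse 1, 2 and 4). The cause was not tested. Of the 4 pathway lists together 1 gene (Lgmn) was called, 0 with library size only and 0 to 1 with 1 mouse left out. With 1 mouse left out in turn, the log2 fold change ranged from -1.23 to 0.33 for Cd74, from -0.91 to 0.92 for H2-Eb1, from -0.13 to 1.16 for H2-DMb1, from -1.15 to 0.32 for H2-Aa, from -0.62 to 0.28 for H2-Ab1 and from -0.58 to 0.07 for H2-DMa. The highest value of each was that without standard diet mouse 1, which follows from that mouse being the highest for each gene. With the replicate number as a block, 53 genes were called over the whole table and the log2 fold change was -0.36 for Cd74, -0.24 for H2-Aa, -0.17 for H2-Ab1, 0.01 for H2-Eb1, -0.21 for H2-DMa and 0.59 for H2-DMb1. The pairing has no source in the labels, and deviations of mice with the same number correlated at only 0.0254 to 0.0900. Counts of 0 to 55 limit what can be said of Ciita, H2-DMa and H2-DMb1. The length of the canonical transcript was added as an alternative after the data were seen.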
